A study of Mus musculus with 6 samples.

Results

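The genes described here are 10 mouse genes of cellular iron handling: the transferrin receptor, the ferritin subunits, iron transporters, the iron-regulatory proteins and their partners in iron release. They were taken by name and not by a rule on measured values, though earlier results of these data were known when they were chosen. All 10 were among the 23886 gene identifiers listed, and all 10 passed the filter on low values, which left 11114 genes for testing. Poly(A) transcripts of AML12, an established line of mouse hepatocytes, were sequenced. The control group was 3 libraries of untreated cells, numbered 2, 3 and 4. The SMF group was 3 libraries, numbered 1, 2 and 3, of cells kept in a static magnetic field, which is constant in time. Cells of both groups were wild type per the study's design, with field strength and duration not given in the sources used here. Nothing in the labels says that replicates were separate cultures, so p-values measure only the spread between these libraries, which may be technical.

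A cell takes up iron bound to transferrin through the transferrin receptor, reduces it in the endosome and passes it to the cytosol, where it is used, stored in ferritin or exported. The iron-regulatory proteins, encoded by Aco1 and Ireb2, read the cytosolic iron level. When iron is scarce they bind iron-responsive elements, short RNA hairpins in untranslated regions. Binding near the start of ferritin and ferroportin transcripts blocks translation, and binding in the 3′ end of the transferrin receptor transcript protects it from decay. Iron loading is therefore known to lower transferrin receptor mRNA while ferritin protein goes up, and hepatocytes are a main store of body iron. RNA levels, the quantity measured here, do not show the translational part of this control.

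The hairpins are shown first because they link uptake and storage. Each line gives 30 bases of transcript, 5′ to 3′ on the gene's own strand, with the loop in capitals. The first 3 lie in 5′ untranslated exons of Fth1 (chr19:9982732-9982761, plus strand), Ftl1 (chr7:45459778-45459807, minus strand) and Slc40a1 (chr1:45925464-45925493, minus strand). The last 4 lie in the 3′ untranslated region of Tfrc on the plus strand, at chr16:32631219-32631248, chr16:32631598-32631627, chr16:32631663-32631692 and chr16:32631710-32631739. The letters A to D of the Tfrc lines only give the order of these matches along the transcript and are not the published names of the elements. Sequences and positions are from GENCODE M21 on build GRCm38, which is not the build of the authors' alignment.
Fth1, 5′ element: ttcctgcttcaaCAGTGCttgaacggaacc
Ftl1, 5′ element: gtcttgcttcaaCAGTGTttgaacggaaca
Slc40a1, 5′ element: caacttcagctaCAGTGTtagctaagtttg
Tfrc, 3′ element A: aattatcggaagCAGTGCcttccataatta
Tfrc, 3′ element B: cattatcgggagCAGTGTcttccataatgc
Tfrc, 3′ element C: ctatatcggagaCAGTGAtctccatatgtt
Tfrc, 3′ element D: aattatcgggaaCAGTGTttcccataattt

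The search looked on the sense strand for a C, any 5 stem bases, CAGTG, a base other than G, and then 5 bases that pair with the stem, G-to-U pairs allowed. Among 21901 coding genes, 23 (0.105%) held such letters in a 5′ untranslated region and 100 (0.457%) in a 3′ untranslated region. Tfrc held 4 and was the only gene with at least 2 in its 3′ untranslated region. The other 6 iron genes held none in these regions, which says only that these exact letters are absent there. Elements with other loop letters or an extra bulge in this stem are missed by the search, so the Tfrc matches may not be all of its elements. For the same reason the 6 genes without a match, Slc11a2 among them, may still hold elements. A match is a description of sequence, not a measured site.

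None of the 10 genes passed the test between SMF and control libraries. That test was limma on log2(FPKM + 1), with Benjamini-Hochberg adjustment over all tested genes and a threshold of 0.05, and it called 0 of 11114 genes (0% of those tested). At an unadjusted p under 0.05 there were 1998 genes (18%), and 3 of the 10 iron genes (Tfrc, Ireb2 and Fth1). Of the 10, 8 had a log2 difference below 0 and 2, the ferritins, above 0. Their median difference was -0.034, against -0.010 over all tested genes. FPKM are reads scaled to gene length and library total, and differences on the log2(FPKM + 1) scale understate the change of low genes. In bulk RNA, fewer cells of a type and less RNA per cell cannot be told apart.

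Levels spanned a factor of 765 between the highest and lowest control means. The order per gene length in controls was Ftl1, Fth1, Tfrc, Aco1, Slc11a2, Slc39a14, Ireb2, Slc40a1, Steap3 and Ncoa4. Control ranges of neighbours overlapped for Ireb2 (9.31 to 10.1 FPKM) and Slc40a1 (8.32 to 9.36), and for Slc40a1 and Steap3 (7.46 to 8.59). Those of Tfrc (32.7 to 36.3) and Aco1 (30.7 to 32.3) nearly met, and the other neighbours did not overlap. Scaled to the length of the principal transcript in place of all exons, the control mean of Slc40a1 (23.5) was above that of Ireb2 (16.03). Reads behind a value ran from 448 for Ncoa4 in SMF 1 to 68090 for Fth1 in SMF 3.

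**Figure D1:**
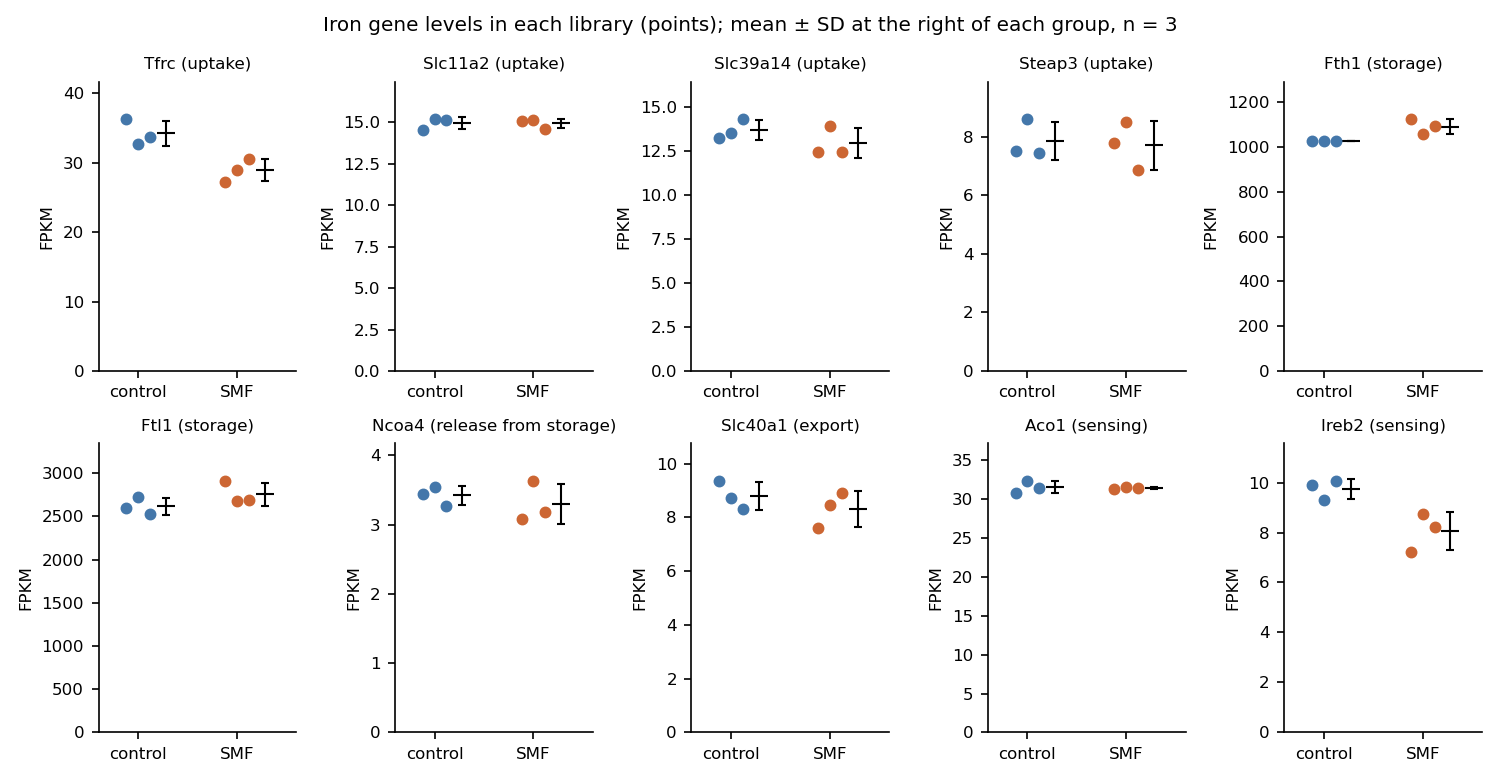
FPKM of the 10 iron genes in each of 3 control (blue) and 3 SMF (orange) libraries, with the mean ± SD (n = 3) in black; each axis starts at 0. SMF points of Tfrc and Ireb2 lie below all control points, those of Fth1 lie above, and the groups overlap for the other 7 genes.

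Tfrc (ENSMUSG00000022797), the receptor that brings transferrin-bound iron into the cell, stood at 36.3, 32.7 and 33.7 FPKM in control 2, 3 and 4. It stood at 27.3, 28.9 and 30.5 FPKM in SMF 1, 2 and 3. Every SMF library was below every control, and the means were 34.2 ± 1.85 and 28.9 ± 1.59 FPKM (SD, n = 3), a difference of -15.6%. The log2 difference was -0.24 (SE 0.055, 95% interval -0.36 to -0.11), which did not pass limma (adjusted p = 0.1584). Of all tested genes, 2.84% had a lower difference. By limma-voom on the reads recovered from the FPKM, Tfrc was lower (log2 difference -0.24, adjusted p = 0.00806), a test that called 510 genes (4.59%), 242 of them higher (2.18%) and 268 lower (2.41%).

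None of the other uptake genes passed, and their groups overlapped. Slc11a2 (DMT1), which moves ferrous iron out of the endosome, stood at 14.5, 15.2 and 15.2 FPKM in controls against 15.1, 15.1 and 14.6 in SMF libraries. Its log2 difference was -0.002 (95% interval -0.10 to 0.09, adjusted p = 0.9819 by limma). Slc39a14 (ZIP14), which carries iron not bound to transferrin into hepatocytes, measured 13.2, 13.5 and 14.3 FPKM in controls against 12.4, 13.9 and 12.5 in SMF libraries. SMF 2 lay inside the control range and the other SMF libraries below it, with a log2 difference of -0.08 (95% interval -0.21 to 0.06, limma adjusted p = 0.505). Steap3, the endosomal reductase that makes iron ready for transport, was at 7.50, 8.59 and 7.46 FPKM in controls against 7.77, 8.52 and 6.85 in SMF libraries. These ranges overlapped, and the interval of its log2 difference of -0.03 ran from -0.22 to 0.17 (limma adjusted p = 0.8929).

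Ferritin transcripts were the most abundant of the set, and both had higher means in SMF libraries. Fth1 (ENSMUSG00000024661), the heavy subunit, which oxidises iron as it enters the shell, stood at 1028, 1027.7 and 1029.2 FPKM in control 2, 3 and 4. In SMF 1, 2 and 3 it stood at 1124.3, 1056.8 and 1092.3 FPKM. The controls were nearly identical, and all SMF libraries were above them. The means were 1028.3 ± 0.805 and 1091.1 ± 33.8 FPKM (SD, n = 3), a difference of 6.11%, and the log2 difference of 0.08 (SE 0.034, 95% interval 0.01 to 0.16) did not pass limma (adjusted p = 0.25) or limma-voom (adjusted p = 0.09031).

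Ftl1 (ENSMUSG00000050708), the light subunit, which aids mineral formation inside the shell, stood at 2597.7, 2718.9 and 2532.1 FPKM in controls. In SMF 1, 2 and 3 it stood at 2912.7, 2674.5 and 2688.1 FPKM. SMF 1 was the highest library, and SMF 2 and SMF 3 lay inside the control range. The means were 2616 ± 94.8 and 2758 ± 134 FPKM, and the log2 difference was 0.08 (95% interval -0.03 to 0.18, limma adjusted p = 0.407). Ferritin genes have many processed copies, and the handling of reads that fit several places was not given in the sources used here. Only 3 copies were looked up, by symbol: Ftl1-ps1, Fth-ps2 and Fth-ps3. They held at most 29, 8 and 1 reads in any library, or 0.048%, 0.012% and 0.0016% of the reads of the parent gene. Copies under other names were not looked for. How reads were shared between a ferritin gene and its copies was not tested.

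Ncoa4, the receptor that delivers ferritin to autophagosomes so that its iron is released, was the lowest gene of the set. It was at 3.45, 3.54 and 3.27 FPKM in controls against 3.08, 3.63 and 3.18 in SMF libraries. SMF 2 was the highest of all 6 libraries and SMF 1 the lowest, and the log2 difference was -0.04 (95% interval -0.22 to 0.13, limma adjusted p = 0.7871). Slc40a1 (ferroportin), the exporter that carries iron out of the cell, was at 9.36, 8.72 and 8.32 FPKM in controls. It was at 7.60, 8.46 and 8.91 FPKM in SMF libraries, overlapping the controls, with a log2 difference of -0.07 (95% interval -0.23 to 0.08, limma adjusted p = 0.5911).

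The transcripts of the iron-regulatory proteins had unlike values. Ireb2 (ENSMUSG00000032293) encodes IRP2, which is degraded when iron is plentiful, and stood at 9.90, 9.31 and 10.1 FPKM in control 2, 3 and 4. It stood at 7.24, 8.74 and 8.20 FPKM in SMF 1, 2 and 3, below every control. The means were 9.76 ± 0.400 and 8.06 ± 0.764 FPKM (SD, n = 3), a difference of -17.4%. The log2 difference of -0.25 (SE 0.070, 95% interval -0.41 to -0.09) did not pass limma (adjusted p = 0.17), and limma-voom called it lower (log2 difference -0.27, adjusted p = 0.01673).

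Aco1 encodes IRP1, a protein that is cytosolic aconitase when it holds an iron-sulfur cluster and an RNA-binding protein when it does not. Aco1 was at 30.7, 32.3 and 31.4 FPKM in controls against 31.2, 31.5 and 31.4 in SMF libraries, so the SMF libraries lay within the control range. The log2 difference was -0.005 (95% interval -0.09 to 0.08, limma adjusted p = 0.9581). The ratio of Aco1 to Ireb2 within a library was 3.11, 3.47 and 3.12 in controls against 4.32, 3.61 and 3.83 in SMF libraries, with no overlap. The SMF mean of this ratio was 1.21 times that of controls as deposited. No test was run on it, and its corrected values are given with the other ratios below.

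Over the 10 genes, groups did not overlap for 1 gene that was higher (Fth1) and 2 that were lower (Tfrc, Ireb2). Over all tested genes, 11% were higher and 12.7% lower without overlap, 23.7% in either direction. A count of 3 in 10 is thus near that background. The 2 genes called by limma-voom, Tfrc and Ireb2, stand against a background of 4.59%.

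Tfrc and Ireb2 had the lowest GC content of the 10 genes, and that property moved with the SMF difference over all genes. Genes were put in 5 groups of equal size by GC content and again by length. From the lowest to the highest GC group, the median log2 difference was -0.09, -0.05, -0.01, 0.03 and 0.07. From the shortest to the longest group it was 0.07, 0.02, 0.00, -0.03 and -0.07. The longest transcripts of Ireb2 and Tfrc were 39.0% and 39.8% GC, within the lowest GC group (29.6 to 43.8%), and their exons covered 9479 and 6185 bases. Ftl1, at 58.1% GC and 1340 bases, lay in the highest GC group and the shortest length group. Fth1, with 3469 bases, lay in the middle GC group.

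**Figure D2:**
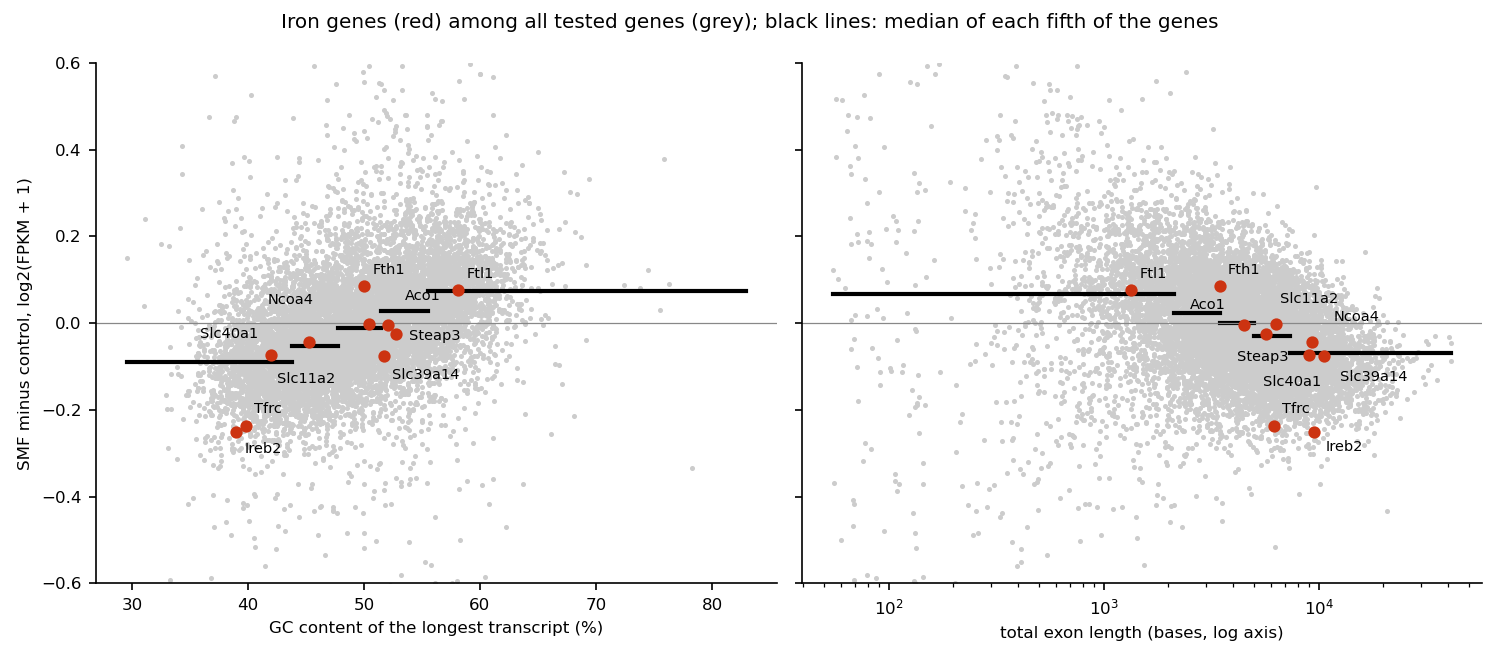
SMF minus control difference in log2(FPKM + 1) against GC content (left) and total exon length on a log axis (right) for tested genes (grey), with the 10 iron genes in red and the median of each of the 5 equal groups as black lines; points beyond 0.6 either way are not drawn. Medians go from -0.09 to 0.07 with GC content and from 0.07 to -0.07 with length, and Tfrc and Ireb2 lie below the line of their group.

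Removing from each library the smooth dependence on GC content and length brought the log2 difference of Tfrc to -0.14 (95% interval -0.25 to -0.02, limma adjusted p = 0.3275). That of Ireb2 went to -0.13 (95% interval -0.25 to -0.02, limma adjusted p = 0.3199). SMF libraries of Ireb2 stayed below all controls. For Tfrc the groups only just failed to overlap, with SMF 3 at 5.029 and control 4 at 5.0295 in corrected log2(FPKM + 1). Neither gene passed limma-voom with this correction (adjusted p = 0.2299 for Tfrc and 0.2516 for Ireb2). That fit called 93 genes (0.841%), of which 65 were higher (0.588%) and 28 lower (0.253%), none of them among the 10. The corrected log2 difference of Ftl1 turned to -0.04 (95% interval -0.11 to 0.03, limma adjusted p = 0.6667), and that of Fth1 was 0.08 (95% interval 0.01 to 0.15, limma adjusted p = 0.3345). After correction 1 gene was higher and 2, counting Tfrc, were lower without overlap, against 9.57% and 8.95% of all genes.

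The corrected value of Fth1 changed when the GC content and length of another transcript model were used, and these properties were not varied singly. Its annotated exons cover 3469 bases, while the principal transcript has 1494. With GC content and length of each gene's principal transcript, the log2 difference was 0.03 for Fth1 (limma adjusted p = 0.6928) and -0.05 for Ftl1 (limma adjusted p = 0.5934). It was -0.11 for Tfrc (limma adjusted p = 0.4479), whose groups then overlapped, and -0.12 for Ireb2 (limma adjusted p = 0.3956), whose groups did not. Groups of Fth1 only just failed to overlap, with SMF 2 at 10.0509 and control 4 at 10.0486 in corrected log2(FPKM + 1). What part of the difference of Tfrc, Ireb2 or the ferritins comes with GC content, length or the field cannot be told apart from these 6 libraries.

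**Figure D3:**
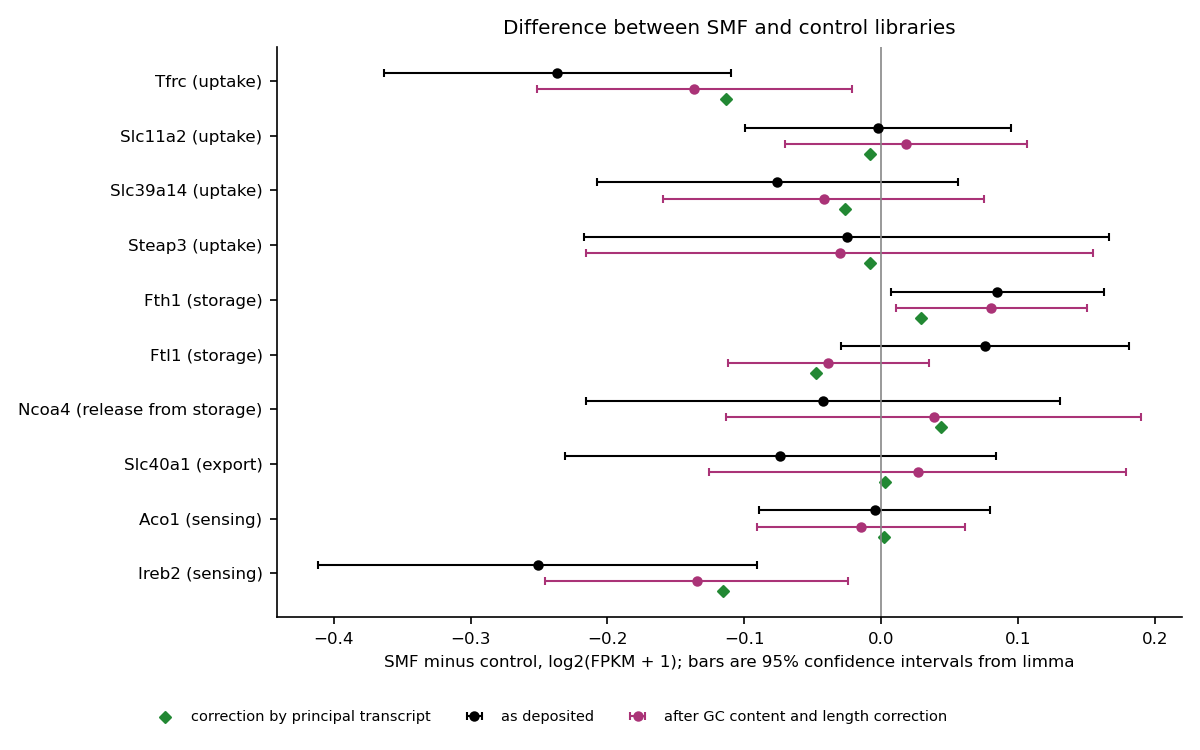
SMF minus control difference in log2(FPKM + 1) for the 10 iron genes with 95% confidence intervals from limma, as deposited (black) and after GC content and length correction (purple), and the value with principal transcript properties (green diamonds). As deposited, the intervals of Tfrc, Ireb2 and Fth1 exclude 0, at -0.24, -0.25 and 0.08, before any adjustment for the number of genes.

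Whether uptake and storage moved oppositely was read from the mean log2(FPKM + 1) of the 4 uptake genes (Tfrc, Slc11a2, Slc39a14, Steap3) minus that of Fth1 and Ftl1. This difference of levels was -6.651, -6.654 and -6.620 in controls against -6.895, -6.700 and -6.827 in SMF libraries. All SMF libraries were lower, by 0.165 on average. The uptake mean was lower by 0.085 (SMF minus control -0.085) and the storage mean higher by 0.080, each without overlap between groups. No p is given for these means, since the genes were chosen with earlier results of these data known.

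These opposite directions rested on few genes and on the correction used. As deposited, the medians of the wider uptake and storage lists, given below, lay on the other side of 0. All 4 uptake genes had a difference below 0, but Slc11a2 was at -0.002, and 52.5% of all tested genes had a lower difference than that. Without Tfrc the uptake mean differed by -0.035 and the groups overlapped. Without Tfrc, uptake minus storage differed by -0.115, with SMF 2 at -6.995 inside the control range. After GC content and length correction the difference with all 4 uptake genes was -0.069, still without overlap, at -6.692, -6.684 and -6.695 in controls against -6.802, -6.705 and -6.770 in SMF libraries. With principal transcript properties it was -0.030, and SMF 2 lay at -6.707 between the controls, which ran from -6.721 to -6.696. Both corrections put Ftl1 below 0, at -0.04 and -0.05, so storage was then not higher in both ferritin genes.

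Ratios between genes of the same library are free of the library total. Fth1 per Tfrc was 28.3, 31.5 and 30.5 in controls against 41.2, 36.5 and 35.8 in SMF libraries, and the SMF mean was 1.26 times that of controls. Ftl1 per Tfrc was 71.6, 83.2 and 75.1 in controls against 106.7, 92.5 and 88.2 in SMF libraries. As deposited, both sets of SMF ratios lay above all controls. After GC content and length correction the log2 ratio of Ftl1 to Tfrc was 6.22, 6.38 and 6.37 in controls against 6.47, 6.49 and 6.30 in SMF libraries, which overlapped. That of Fth1 to Tfrc did not overlap with this correction (difference 0.22) and overlapped by principal transcript (difference 0.14). Ftl1 per Fth1 was 2.53, 2.65 and 2.46 in controls against 2.59, 2.53 and 2.46 in SMF libraries, which overlapped. After either correction the log2 ratio of Ftl1 to Fth1 was lower in SMF libraries without overlap, with differences of -0.12 and, by principal transcript, -0.08. Together the ferritin genes took 0.705, 0.721 and 0.696% of reads in controls and 0.780, 0.725 and 0.739% in SMF libraries.

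**Figure D4:**
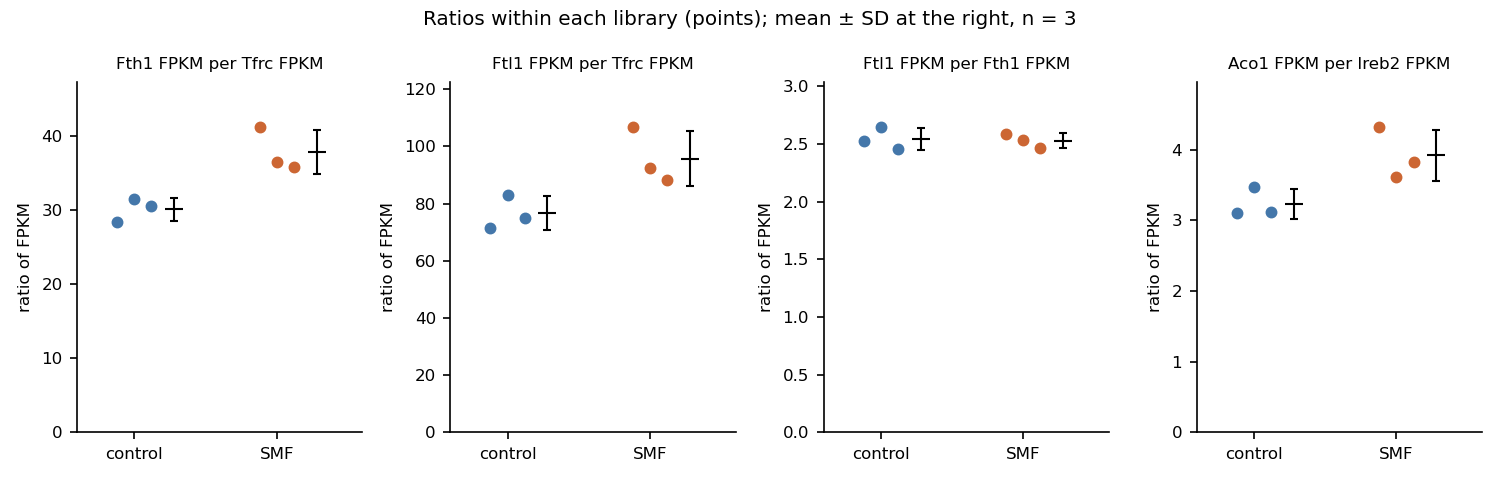
Ratios of FPKM within each of 3 control (blue) and 3 SMF (orange) libraries, with mean ± SD (n = 3) in black. As deposited, Fth1 per Tfrc, Ftl1 per Tfrc and Aco1 per Ireb2 are higher in every SMF library than in any control, while Ftl1 per Fth1 overlaps at 2.46 to 2.65 in controls and 2.46 to 2.59 in SMF libraries.

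The wider iron pathway was read from 7 lists of 73 other genes. Of these, 67 were listed and 57 tested, with 27 differences above 0, 30 below and a median of -0.010, equal to that of all tested genes at this precision. None passed limma (lowest adjusted p = 0.1743) or limma-voom. Groups did not overlap for 8 genes that were higher and 8 that were lower, against the 11% and 12.7% of all genes.

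Of 9 tested genes of iron uptake and endosomal release, 5 were above 0 and 4 below. Their median was 0.084 (0.055 after GC content and length correction), so they did not share the lower mean of the uptake genes above. Trf, which encodes transferrin itself, was at 67.6 ± 4.80 FPKM in controls against 71.6 ± 2.96 in SMF libraries (SD, n = 3; limma adjusted p = 0.4451). Steap1, a relative of Steap3, was at 29.2 ± 1.83 and 27.0 ± 0.666 FPKM (limma adjusted p = 0.3228). Hfe, a partner of the transferrin receptor that is mutated in hereditary iron overload, had the largest difference of the list. It was at 2.47 ± 0.392 and 3.27 ± 0.259 FPKM, with every SMF library above the controls and a log2 difference of 0.30 (limma adjusted p = 0.2017).

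The cytosolic iron chaperones, which carry iron to ferritin, had differences in both directions: of 5 storage and chaperone genes tested, 2 were above 0 and 3 below. Their median was -0.030 (0.011 after GC content and length correction). Pcbp1 was at 297.1 ± 10.6 FPKM in controls against 320.2 ± 15.6 in SMF libraries, and its log2 difference of 0.11 (limma adjusted p = 0.2662) was 0.01 after GC content and length correction. Pcbp2 was at 116.5 ± 3.27 and 114.1 ± 1.34 FPKM, and Pcbp4, with the largest difference, at 14.1 ± 1.43 and 15.5 ± 0.956 (log2 difference 0.13, limma adjusted p = 0.3746).

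Genes of iron sensing and hepcidin control leaned below 0, with 12 of 15 tested below and 3 above, and a median of -0.070 (-0.045 after GC content and length correction). None passed limma or limma-voom. Groups did not overlap for 6 genes that were lower, against 12.7% of all tested genes, and for 2 after that correction, against 8.95%. Skp1, part of the ubiquitin ligase that removes IRP2, was at 108.6 ± 1.81 FPKM in controls against 100.8 ± 3.81 in SMF libraries (log2 difference -0.11, limma adjusted p = 0.2173). Fbxl5, the iron-binding subunit of that ligase, picked after its values were seen, stood at 16.1 ± 0.558 and 15.5 ± 0.774 FPKM. Its log2 difference of -0.05 (limma adjusted p = 0.6055) turned to 0.05 after GC content and length correction, while that of Skp1 was then -0.09. Acvr2a, a receptor for bone morphogenetic proteins, had the largest difference at 4.42 ± 0.167 and 3.70 ± 0.481 FPKM (log2 difference -0.21, limma adjusted p = 0.2514). Id1, a target of that pathway, was at 82.5 ± 5.18 and 85.6 ± 3.34 FPKM. Hamp, the gene of the iron hormone hepcidin, picked after its values were seen, lay between 0 and 0.943 FPKM and was not tested.

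Heme genes, whose breakdown arm frees iron inside the cell, had 10 differences above 0 and 6 below among 16 tested. Slc48a1, a heme transporter, was at 50.7 ± 1.23 FPKM in controls against 52.5 ± 2.21 in SMF libraries, and Hpx, the plasma heme scavenger, at 39.2 ± 1.55 and 37.6 ± 2.49. Blvrb, a biliverdin reductase, had the largest difference, at 9.27 ± 1.38 and 11.1 ± 1.82 FPKM with overlapping groups (log2 difference 0.24, limma adjusted p = 0.3462). Hmox1, the inducible heme oxygenase, picked after its values were seen, stood at 31.9 ± 3.12 and 31.9 ± 0.744 FPKM. Hmox2, its constitutive relative, had the lowest adjusted p of all 57 genes at 22.9 ± 0.0855 and 25.4 ± 1.01 FPKM (log2 difference 0.14, limma adjusted p = 0.1743).

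Mitochondrial iron genes had 5 differences above 0 and 2 below. Cisd1, an iron-sulfur protein of the outer membrane, was at 44.3 ± 1.52 FPKM in controls against 47.4 ± 1.52 in SMF libraries, with a log2 difference of 0.09 that was 0.01 after GC content and length correction. Abcb8 was at 19.7 ± 1.05 and 21.04 ± 1.61 FPKM. Slc25a28, a mitochondrial iron importer, was at 18.9 ± 0.880 and 20.9 ± 1.86 FPKM (log2 difference 0.14, limma adjusted p = 0.327). Of the export partners, Cp, the ferroxidase that works with ferroportin, was at 69.3 ± 5.77 and 66.7 ± 4.47 FPKM, and App at 40.1 ± 0.296 and 40.6 ± 0.0746.

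**Figure D5:**
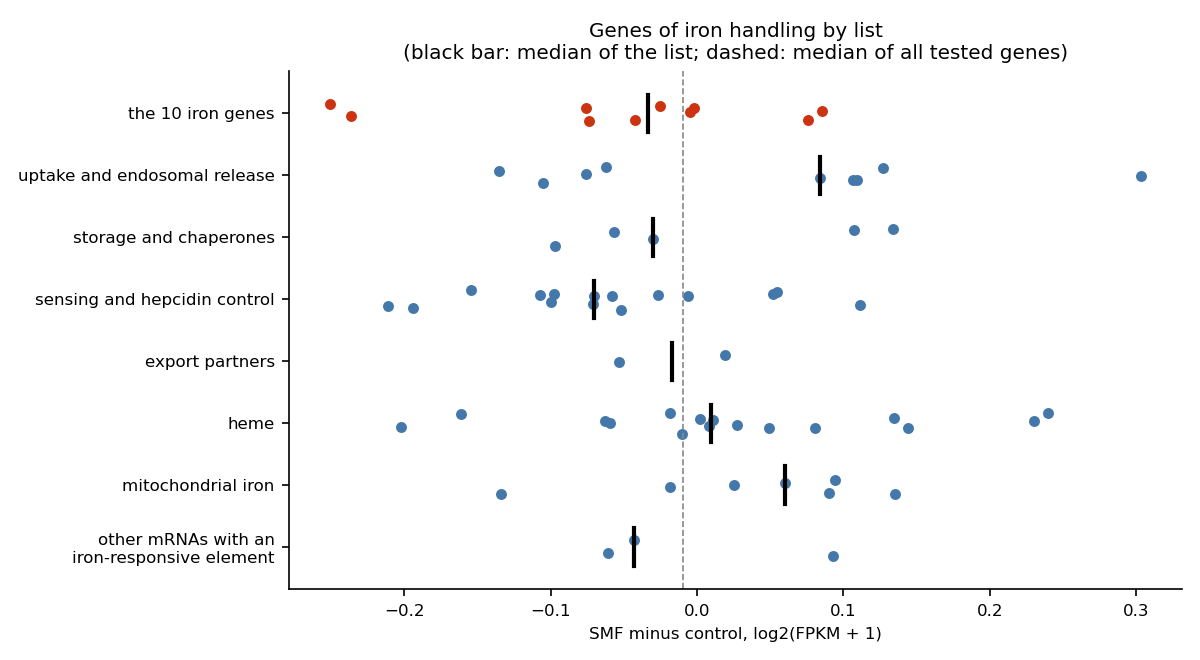
SMF minus control difference in log2(FPKM + 1) of the tested genes of each iron list (blue) and of the 10 iron genes (red), each point 1 gene, with the list's median as a black bar and the median of all tested genes dashed. Medians run from -0.070 for sensing and hepcidin control to 0.084 for uptake and endosomal release.

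Other transcripts with hairpin letters lay on both sides of 0. Apart from the iron genes above, 20 genes held a match in a 5′ untranslated region, of which 14 were tested, 6 above 0 and 8 below (median -0.021). Of 99 other genes with a match in a 3′ untranslated region, 67 were tested, 32 above 0 and 35 below (median -0.003), and none of either set passed limma. Cdc42bpa, a kinase known to carry a 3′ element, was at 5.23 ± 0.196 FPKM in controls against 5.05 ± 0.400 in SMF libraries (SD, n = 3).

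Between 15514530 reads (SMF 1) and 18200516 reads (control 3) lay behind each library, and the groups overlapped. SMF 1 had the lowest Tfrc and Ireb2 and the highest Fth1 and Ftl1. Of 8 hepatocyte markers, 7 passed the filter, with summed levels of 3634 to 3826 FPKM in controls and 3807 to 4012 in SMF libraries, and Apoa1 was at or below 0.585 FPKM. Krt8 and Krt18, keratins of many epithelia, made up 93.4 to 94.5% of that sum, and without them it was 209.9 to 238.7 FPKM in controls against 221.2 to 242.4 in SMF libraries, which overlapped. Of 4 cholangiocyte markers, 3 passed the filter. Mean FPKM, control then SMF, was 1063 and 1110 for the keratin Krt19, 61.86 and 62.55 for Krt7, and 8.985 and 9.547 for Sox9. Epcam was at or below 0.0268 FPKM. The cholangiocyte sum ranged from 1123 to 1147 FPKM among control libraries and from 1094 to 1236 among SMF libraries, which overlapped. Summed macrophage markers were at 2.99 to 4.33 FPKM in controls and 3.40 to 3.73 in SMF libraries, stellate markers at 0.841 to 1.18 and 0.988 to 1.12, and endothelial markers at most 0.169. The part of these levels in the iron gene differences was not tested.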

How the data were processed

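Poly(A) RNA from 3 control and 3 SMF samples was sequenced; groups and numbers came from the sample titles. The authors deposited FPKM per gene, and per the submitters' processing notes used HISAT2 2.1.0, Bowtie2 2.2.3 and build GRCm39. The counting tool, annotation and strand setting were not given in the sources used here. Symbols, exon lengths, GC content and hairpin positions came from GENCODE M21 (GRCm38), which named 23521 of 23886 identifiers, and older symbols were matched through a RefSeq table. FPKM were whole multiples of 1 read: with the M21 exon length, reads came out whole within 0.02 reads for 98.08% of genes with such a length, and 674 genes needed another length. For 1 kilobase of exon, 1 read corresponded to 0.0549 to 0.0645 FPKM, by library.

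Genes with at least 1 FPKM in at least 3 of 6 libraries (11114) were tested on log2(FPKM + 1) by limma 3.58.1 with its variance trend (R 4.3.3), two-sided, threshold 0.05. limma-voom was run on the recovered reads. The correction subtracted a loess fit (span 0.3) on GC content and log length in each library, over 99.47% of tested genes. Other settings were pseudocounts of 0.1 and 5, no filter or 5 FPKM, TPM, median-of-ratios and quantile scaling, no trend, a replicate block, and each library left out. The corrections with a library left out, by principal transcript and in limma-voom, the corrected ratios, and the uptake mean without Tfrc, were chosen after seeing the data. In simulated data of 10965 genes for this comparison, limma made 171 calls, 12 of them false. It found 30.6% of 1.2-fold changes, 89.8% of 1.5-fold changes and 100% of changes of 2-fold or 3-fold. Simulated counts were drawn gene by gene at a single assumed dispersion, not estimated from these libraries, and without the trend with GC content and length. These rates are therefore a check of the code and not the power of the test in these libraries.

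The 10 genes and all lists were chosen with earlier results of these data known. All 10 genes were named whatever they did; of each other list, the 2 genes with the highest mean FPKM and the 1 with the largest difference. Group means of uptake and storage have no test. Some genes of these lists are not reported here.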

Additional observations from a re-analysis of the deposited data

How the results depend on the processing

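Each of the 10 iron genes was recomputed under 26 alternatives, fewer where a setting gave no value. Of 259 values, 206 kept direction and side of the threshold, 51 turned direction and 2 came past the threshold. The last were Tfrc (log2 difference -0.24, adjusted p = 0.00806) and Ireb2 (-0.27, adjusted p = 0.01673) by limma-voom. Their adjusted p ran from 0.1054 to 0.3847 and from 0.08252 to 0.4168 by limma with 1 library left out. No iron gene passed under any other setting. Over all genes, limma called 0, against 8 with a filter at 5 FPKM, 510 by limma-voom and 93 by limma-voom with GC content and length correction. With 1 library left out, 0 to 3 genes passed, and 0 to 1 with that correction.

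Directions turned mostly under the GC content and length correction. Not all values that turned had been near 0: as deposited Ftl1 was at 0.076 and Slc40a1 at -0.074, beside 0.085 for Fth1. With the correction, and then by principal transcript and in limma-voom, Ftl1 was at -0.039, -0.048 and -0.056, Slc40a1 at 0.027, 0.0028 and 0.045, and Ncoa4 at 0.038, 0.044 and 0.043. Slc11a2 was at 0.018 with the correction and 0.021 in corrected limma-voom, and Aco1 at 0.002 by principal transcript. Quantile normalization gave Fth1 -0.047, and median-of-ratios scaling gave Slc11a2 0.007 and Aco1 0.0049. With 1 library left out, Ftl1 ran from 0.036 to 0.104, Slc40a1 from -0.119 to -0.016, Slc11a2 from -0.022 to 0.012, Aco1 from -0.022 to 0.014 and Steap3 from -0.091 to 0.048. With the correction as well, Ftl1 ran from -0.053 to -0.016, Slc40a1 from -0.026 to 0.067, Slc11a2 from -0.002 to 0.029, Aco1 from -0.033 to 0.0001, Ncoa4 from 0.004 to 0.069 and Steap3 from -0.097 to 0.042.

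The difference of uptake minus storage, -0.165, kept its direction under every alternative run and shrank to -0.059 with quantile normalization, -0.030 by principal transcript and -0.055 in corrected limma-voom. It was -0.039 with the correction and without Tfrc. It ran from -0.219 to -0.122 with 1 library left out and from -0.095 to -0.047 with the correction as well. The cause of these shifts was not tested. A kept direction of this difference does not mean that storage stayed higher while uptake stayed lower. Fth1 and Ftl1 were at 0.080 and -0.039 with the correction, and at 0.029 and -0.048 by principal transcript. With quantile normalization Fth1 was at -0.047, without a rise of Ftl1. The separate means of uptake and storage were computed only as deposited.

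Groups shared only the replicate numbers 2 and 3, whose samples deviated together with correlations of 0.058 and 0.046, so the numbers are not taken as pairs. A replicate block gave 19 genes past the threshold, or 17 with GC content and length correction, none among the 10. With the block, Slc11a2 was at 0.001. With block and correction, Ftl1 was at -0.057, Slc40a1 at 0.005, Slc11a2 at 0.018, Slc39a14 at 0.0083, Ncoa4 at 0.019, and uptake minus storage at -0.049.

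Depth limited Ncoa4 most, at 448 to 604 reads a library, and 3 libraries a group limited small differences for all 10 genes.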
